A study of Homo sapiens with 2 samples.

Results

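The genes described here are 10 chaperones, folding enzymes and regulators of the endoplasmic reticulum (ER), which belong to the unfolded protein response: HSPA5, HSP90B1, CALR, PDIA3, PDIA4, PDIA6, XBP1, DNAJB9, HERPUD1 and SDF2L1. They were taken by symbol from the 33538 Ensembl genes of the count table, and all 10 were found and had at least 100 UMIs in the cells used, as did 8429 genes in all. The measurement was a single-cell RNA library of untreated SH-SY5Y cells, a human neuroblastoma line, from 2 flasks that were split from a single culture. The flasks, SplitA and SplitB, each carried an antibody hashtag and were pooled into a single library, so that a cell's flask was read from its hashtag counts. A cell was taken as a singlet when a hashtag had at least 3 times the count of the other and the other was low, by the limits of the study's supplementary code.

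Of 2879 cells, 1179 were singlets of SplitA, 1605 were singlets of SplitB and 95 were multiplets. Unless stated otherwise, values are from the 899 and 1195 singlets with at least 1000 genes, whose median depth was 6063 UMIs in SplitA and 6346 in SplitB. These cells had UMIs of all 9 adrenergic neuroblastoma markers (2866 and 2766 counts per 1000000 UMIs, CPM, in sum) and of 7 of 8 mesenchymal markers (178 and 174 CPM, of which TWIST1 alone made up 166 and 160.0 CPM, with no other mesenchymal marker over 7.86 CPM), while 4 of the 5 markers of other tissues were at 0. There was 1 flask against 1 flask and no treatment, so no test of a condition was possible. Cells of a flask are not replicates, and no p-value is given over them. Results were called only when they passed a fixed size in both flasks, and each main call is set beside the share of all genes that passed the same limit. For most calls that were recomputed in other cells or settings, that share was not counted. The genes behind such shares were not matched to the members in level.

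The ER lumen is where secreted and membrane proteins fold. HSPA5 (BiP) and HSP90B1 (GRP94) are its Hsp70 and Hsp90 chaperones, CALR holds glycoproteins during folding, and PDIA3, PDIA4 and PDIA6 form and rearrange disulfide bonds. DNAJB9 is a J-domain partner of HSPA5, SDF2L1 works with HSPA5, and HERPUD1 takes part in the degradation of misfolded ER proteins. When unfolded proteins accumulate, the sensors ATF6, IRE1 (ERN1) and PERK (EIF2AK3) are released from HSPA5. IRE1 splices XBP1 mRNA, and the spliced XBP1 and cleaved ATF6 proteins raise transcription of the chaperones through the ER stress response element (ERSE). UMI counts from the end of a transcript give the sum of spliced and unspliced XBP1 mRNA, so the splicing itself was not measured.

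The element that these genes are known for is shown first. Its letters are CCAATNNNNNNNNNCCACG, and an exact match on either strand was looked for in RefSeq promoter windows (GRCh38.p14) from 250 bases before to 50 bases after a transcription start. Of 35116 windows, 27 held a match, a share of 0.0769%, and they belonged to 25 genes. Among the 9 members with a window (PDIA3 had none), 5 had a match: HSPA5, HSP90B1, CALR, PDIA6 and XBP1. The sites are given 5′ to 3′ in the direction of the element, with its fixed letters in capitals.
HSPA5, chr9:125241391-125241409, minus strand, bases -66 to -48 from the start: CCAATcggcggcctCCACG
HSP90B1, chr12:103930216-103930234, plus strand, -194 to -176: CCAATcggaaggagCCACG
HSP90B1, chr12:103930321-103930339, minus strand, -89 to -71: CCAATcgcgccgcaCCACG
CALR, chr19:12938384-12938402, minus strand, -225 to -207: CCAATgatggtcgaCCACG
PDIA6, chr2:10812853-10812871, minus strand, -86 to -68: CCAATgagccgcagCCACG
XBP1, chr22:28800603-28800621, minus strand, -52 to -34: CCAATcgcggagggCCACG

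The HSPA5, CALR and XBP1 sites lay outside any gene of GENCODE release 44. Both HSP90B1 sites were upstream of the RefSeq start but within an exon of a longer HSP90B1 transcript, and the PDIA6 site was upstream of one RefSeq start and in an intron of the longer PDIA6 transcripts. A second form of the element, ERSE-II, has the letters ATTGGNCCACG and was found in 19 of the windows, 0.0541% of them, 2 of which were those of HERPUD1 and SDF2L1.
HERPUD1, chr16:56932025-56932035, plus strand, -117 to -107: ATTGGgCCACG
SDF2L1, chr22:21642114-21642124, minus strand, -188 to -178: ATTGGtCCACG
Neither form was in the windows of PDIA4 and DNAJB9, which says only that these letters were not there. The end CCACG, which both forms contain, was in the windows of all 9 members and in 38.1% of all windows.

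To show the setting of such a site, 200 bases upstream of HSPA5 follow (chr9:125241384-125241583, minus strand, bases -240 to -41 from the RefSeq start), outside any gene of GENCODE release 44 and again with the fixed letters of the ERSE in capitals.
HSPA5 upstream: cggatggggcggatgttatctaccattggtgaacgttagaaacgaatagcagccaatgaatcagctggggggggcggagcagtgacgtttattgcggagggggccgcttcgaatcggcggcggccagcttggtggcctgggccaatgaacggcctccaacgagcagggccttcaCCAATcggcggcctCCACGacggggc

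Next, the level of each member was compared between flasks and between genes. A UMI counts a molecule and not a length of it, so levels of different genes could be set side by side without a length correction. PDIA6 was at 154.1 CPM in SplitA and 155.1 CPM in SplitB, CALR at 133 and 129 CPM, HSP90B1 at 117 and 127 CPM, and SDF2L1 at 104 and 107 CPM. HSPA5 was at 67.7 and 68.4 CPM, PDIA3 at 57.2 and 63.1 CPM, PDIA4 at 55.7 and 56.8 CPM, and XBP1 at 33.7 and 32.7 CPM. HERPUD1 (15.2 and 13.5 CPM) and DNAJB9 (11.6 and 15.4 CPM) were the lowest. The folding enzymes and chaperones were thus above the transcription factor and the low HERPUD1 and DNAJB9, and HSPA5 was only the fifth of the 10. The exact 95% Poisson intervals separated PDIA6 from CALR (144.2 to 164.5 against 124 to 143 CPM in SplitA) in both flasks. They overlapped between CALR and HSP90B1 (108 to 126 CPM for the latter in SplitA), between HSPA5, PDIA3 and PDIA4 as neighbours, and between HERPUD1 and DNAJB9, so the order of these neighbours was not resolved. HSP90B1 and SDF2L1 overlapped in SplitA but not in SplitB. All intervals cover counting error only.

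By mean CPM, PDIA6 ranked 693 of the 8429 genes, HSPA5 1533 and XBP1 3049, while HERPUD1 (5881) and DNAJB9 (6113) lay in the lower part. A PDIA6 UMI was seen in 56.4% of SplitA cells and 56.9% of SplitB cells. For HSPA5 these shares were 25.9% (95% exact binomial interval 23.1 to 28.9%) and 27.9% (25.3 to 30.5%), and for DNAJB9 6.79% and 9.71%. No cell type without these genes was in the library, so the part of free RNA in such shares was not measured. With every cell thinned to 2000 UMIs the HSPA5 shares were 11.8% and 11.6%, so most cells without a UMI could not be told from cells with a low level at this depth.

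The flasks were close. Only DNAJB9 passed a log2 difference of 0.25 between flasks, at -0.40 (SplitA over SplitB, interval -0.85 to 0.03) on 68 and 124 UMIs, and its interval included 0. Of all genes, 16.5% passed this limit, so 1 of 10 members is no more than the background. For HSPA5 the log2 difference was -0.02 (-0.21 to 0.17), and for PDIA6 -0.01 (-0.13 to 0.12). Summed over the members, the level was 748.5 CPM in SplitA and 768 CPM in SplitB.

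**Figure D1:**
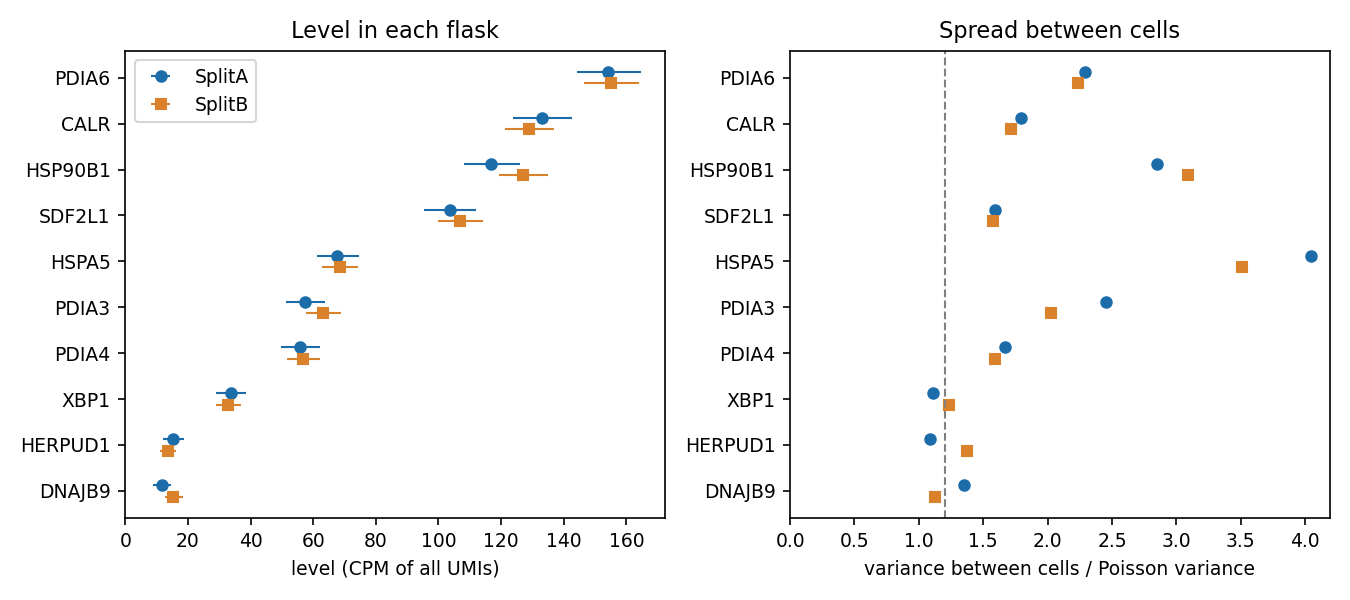
Level of the 10 members in each flask (left, CPM of all UMIs with exact 95% Poisson intervals) and variance between cells divided by that of a Poisson count (right, with the limit of 1.2 as a dashed line). PDIA6 had the highest level, near 155 CPM in both flasks, but HSPA5 had the largest variance ratio, 4.04 in SplitA and 3.51 in SplitB.

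The members also differed in their spread between cells. The variance of the counts, divided by the variance that a Poisson count of the same cell totals would have, was over 1.2 in both flasks for 7 of the 10 members, against 11.0% of all genes. With every cell thinned to 2000 UMIs, 5 members were past this limit in both flasks. HSPA5 had the largest ratio, 4.04 in SplitA and 3.51 in SplitB, which ranked 53 of 8429 by the lower flask. HSP90B1 followed at 2.85 and 3.09, PDIA3 at 2.46 and 2.03, and PDIA6 at 2.29 and 2.23. CALR (1.79 and 1.72), PDIA4 (1.67 and 1.59) and SDF2L1 (1.60 and 1.58) were lower but past the limit. XBP1 (1.11 and 1.23), DNAJB9 (1.35 and 1.13) and HERPUD1 (1.09 and 1.37) passed it in a single flask only. Single cells held up to 10 HSPA5 UMIs in each flask, where the median cell held 0.

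A large part of this spread went with the share of UMIs from the 13 mitochondrial protein-coding genes. Among the cells used, 70 of SplitA and 104 of SplitB had a share of 15% or more. Without them the HSPA5 ratio was 1.49 and 1.96, that of HSP90B1 1.55 and 1.76, and that of PDIA3 1.31 and 1.29, while SDF2L1 stayed at 1.64 in both flasks. The same 7 members were still past 1.2 in both flasks. The HSPA5 level was 49.1 and 52.0 CPM without these cells, and SDF2L1 (105 and 108 CPM) and XBP1 (32.6 and 31.8 CPM) hardly moved. For this reason the main results below are also given for the cells under 15%, a division that was chosen after the data had been seen.

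To describe the relation in full, all singlets were divided by mitochondrial share, including those with few genes, and levels were taken as CPM of the nuclear-encoded UMIs. Cells with a share of 30% or more (193 of SplitA, 347 of SplitB) were set against those under 10% (680 and 915). They were shallower, with median totals of 1511 and 1468 UMIs against 6175 and 6432. HSPA5 was at 1140.4 CPM against 51.1 in SplitA and at 1167 against 53.8 in SplitB, a log2 difference of 4.48 (4.20 to 4.76) and 4.44 (4.22 to 4.66). By the mean of the flasks this was rank 1 of the 8416 genes compared.

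The other chaperones and disulfide isomerases had the same direction. PDIA3 was higher by 4.22 and 3.78 on the log2 scale (rank 4), HSP90B1 by 3.67 and 3.61 (rank 16), PDIA4 by 3.28 and 2.94 (rank 56), PDIA6 by 3.13 and 2.93 (rank 69) and CALR by 2.35 and 2.30 (rank 385). These 6 genes thus lay in the upper part of the table, although the median of all genes was itself shifted by 0.70 in SplitA and 0.71 in SplitB. HERPUD1 (1.86 and 1.44) was also above that median. XBP1 (0.96 and 0.93) and DNAJB9 (0.88 and 1.30, on 5 and 13 UMIs in the cells of high share) passed the limit of 0.5 but lay near the median of all genes, and the DNAJB9 interval in SplitA ran from -0.80 to 2.18. SDF2L1 was the exception, at 94.2 against 115 CPM in SplitA and 114 against 122 CPM in SplitB (-0.29 and -0.11, intervals -1.05 to 0.39 and -0.62 to 0.37). In all, 9 of 10 members were past 0.5 upward in both flasks, where 45.4% of all genes were, and none was past it downward, where 13.6% were.

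The step lay between 2 neighbouring ranges of the share. HSPA5 was at 64.7 and 70.6 CPM in cells of 10 to 15% but at 709 and 685 CPM in cells of 15 to 30%. HSP90B1 went from 120 and 138 CPM to 1015 and 853 CPM over the same step, and PDIA3 from 48.3 and 54.0 CPM to 690 and 533 CPM. At this step the mean number of nuclear-encoded UMIs per cell fell from 6196 to 1573 in SplitA and from 6454 to 1905 in SplitB.

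Counts per cell were therefore read beside the CPM. The mean number of HSPA5 UMIs in a cell was 0.312 and 0.336 under 10% and 1.13 and 1.12 at 30% or more, although the cells of high share held far fewer nuclear-encoded UMIs (990.5 and 963 per cell against 6103 and 6241). HSP90B1 was at 0.599 and 0.669 UMIs per cell under 10% and at 1.24 and 1.26 at 30% or more, and PDIA3 at 0.285 and 0.358 against 0.865 and 0.758. Only these 3 members were past 0.5 upward in both flasks on the log2 scale of UMIs per cell. The share of all genes past this limit per cell, upward or downward, was not counted, so these calls have no background. SDF2L1 went the other way, from 0.701 and 0.764 to 0.0933 and 0.110 UMIs per cell (-2.91 and -2.80). XBP1 (-1.66 and -1.76), DNAJB9 (-1.74 and -1.39) and HERPUD1 (-0.77 and -1.25) were past 0.5 downward as well, and CALR was at -0.27 and -0.40. The 86 ribosomal protein genes together went from 2505 and 2545 to 138 and 134 UMIs per cell. A HSPA5 UMI was present in 22.1% and 23.2% of cells under 10% and in 45.1% and 42.4% of those at 30% or more.

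**Figure D2:**
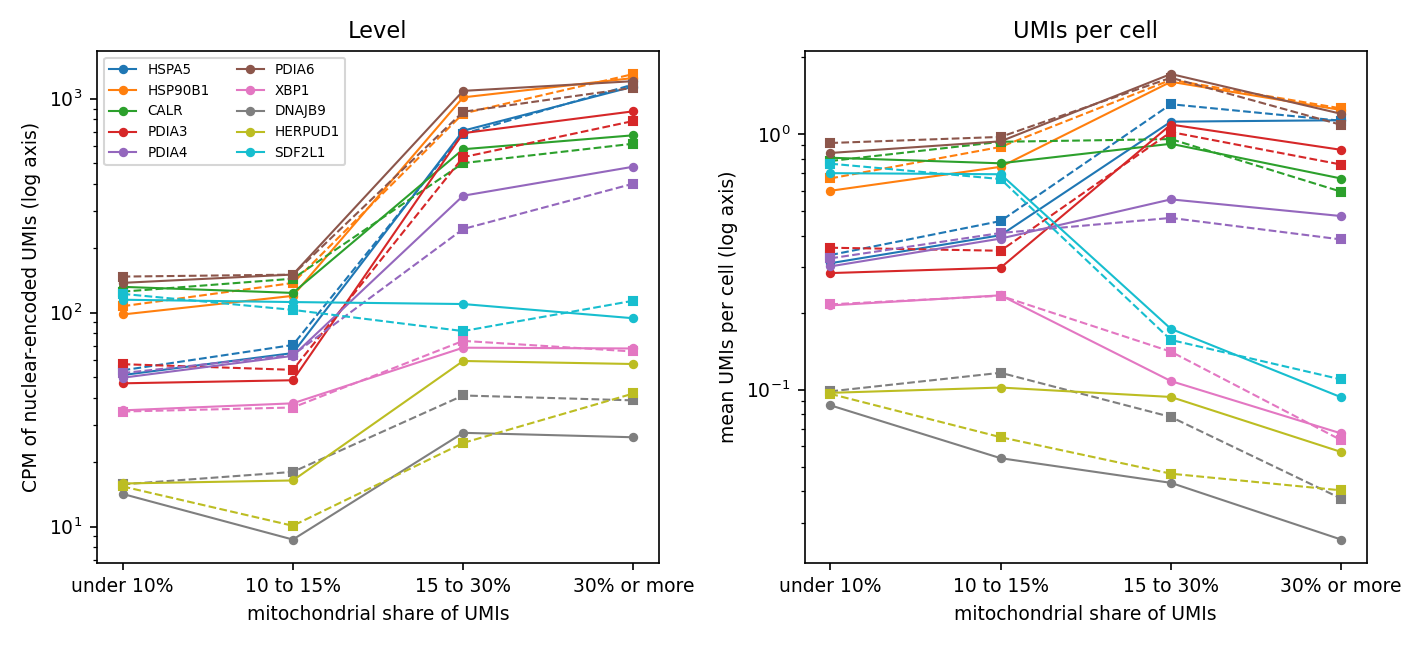
Members in singlets divided by mitochondrial share, as CPM of nuclear-encoded UMIs (left) and mean UMIs per cell (right), both on log axes, with SplitA as circles and solid lines and SplitB as squares and dashed lines. HSPA5 went from 64.7 and 70.6 CPM at 10 to 15% to 709 and 685 CPM at 15 to 30%, while SDF2L1 stayed between 82.0 and 122 CPM and was lower in UMIs per cell.

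Lists fixed for comparison moved in part with the chaperones. Of all genes, 45.4% were higher and 13.6% lower by the same limit, which is the background of each list. Of 26 further ER chaperone, translocation and degradation genes tested, 19 were higher and 3 lower, the latter no more than the background. OS9, which binds misfolded glycoproteins, was at 3.17 and 3.08 and DNAJB11, a J-domain partner of HSPA5, at 3.31 and 3.10. SEC61G (-1.35 and -1.69), SEC61B (-0.79 and -0.70) and SELENOK (-0.99 and -0.77) were the 3 that were lower. Of 13 cytosolic and mitochondrial chaperones 11 were higher, among them CCT5 (3.89 and 3.40) and HSP90AA1 (3.03 and 2.82), with a list median of 2.56 and 2.54 against 2.74 and 2.61 for the members. The difference was thus not limited to chaperones of the ER. The 2 sensors with enough UMIs, ATF6 (2.48 and 0.83) and ATF6B (2.09 and 2.05), were higher. Of 7 genes of the PERK branch and the integrated stress response, only ASNS was higher (4.69 and 3.69) and only DDIT4 lower, the latter on 0 and 2 UMIs in the cells of high share, while ATF4 was at 0.39 and 0.10. After thinning of every cell to 500 UMIs, 9 members were again higher. HSPA5 was then at 4.70 and SDF2L1 at -0.53 by the mean of the flasks. Among cells with at least 1000 genes, those of 15% or more were also set against those under 10%. There 8 members were higher, with HSPA5 at 3.87 and 3.46, DNAJB9 at -0.14 and 1.16 and SDF2L1 at -0.29 and -0.25. Thinning evens the counts but compares the same cells. Depth and mitochondrial share moved together across the singlets, and which of them the levels follow cannot be told apart here.

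Co-expression was taken as Pearson's r of log-normalized counts over the cells of a flask. Of the 45 pairs of members, 18 had an r of 0.1 or more in both flasks, against 1.35% of pairs of a member with another gene. HSPA5 and HSP90B1 were the closest pair, with an r of 0.436 in SplitA and 0.383 in SplitB. HSP90B1 with PDIA6 reached 0.383 and 0.336, HSP90B1 with PDIA3 0.350 and 0.369, and HSPA5 with CALR 0.377 and 0.331. All 15 pairs among HSPA5, HSP90B1, CALR, PDIA3, PDIA4 and PDIA6 were past the limit, and the lowest of them, CALR with PDIA4, was at 0.248 and 0.190. These 15 were also the pairs that were past it with every cell thinned to 2000 UMIs. By mean CPM these 6 genes ranked from 693 to 1844 of 8429, and the other genes were not matched to that level. The part of level in the excess over 1.35% was not tested.

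The remaining 4 genes were loosely joined to this block. XBP1 was past the limit with HSPA5 (0.101 and 0.136) and PDIA6 (0.104 and 0.10), and SDF2L1 with CALR (0.117 and 0.107). DNAJB9 and HERPUD1, both seen in under 10% of cells, had no such pair. By the mean of the flasks their highest r were those of DNAJB9 with PDIA3 (-0.01 and 0.10) and HERPUD1 with XBP1 (0.06 and 0.06). The median over all 45 pairs was 0.0717 in SplitA and 0.0899 in SplitB, and that of a member with another gene was 0.0029 over both.

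Levels of the block rose with the mitochondrial share. A partial r on log10 UMIs, mitochondrial share and cycle scores was 0.1 or more in both flasks for 21 of the 45 pairs. Such a partial r takes out only a linear part, whereas HSPA5, HSP90B1 and PDIA3 rose in a step over all singlets. How many pairs with other genes reached 0.1 as a partial r was not counted, so the 21 pairs have no background. The mean level of the 10 members had an r of 0.555 with the mitochondrial share in SplitA and 0.474 in SplitB. Single chaperones ranged from 0.275 (CALR, SplitB) to 0.478 (PDIA6, SplitA), while SDF2L1 was at -0.10 and -0.07 and XBP1 at 0.03 and 0.00. Without the cells of 15% or more, 18 pairs were again past 0.1 in both flasks, but with smaller values and partly other pairs. HSPA5 with HSP90B1 was then at 0.255 and 0.207, and HSPA5 with CALR at 0.228 and 0.241. SDF2L1 came into the block, at 0.171 and 0.189 with HSPA5 and 0.153 and 0.194 with PDIA4, whereas PDIA3 kept only the pairs with HSP90B1 (0.103 and 0.238) and PDIA4 (0.103 and 0.107). In these cells 0.107% of pairs of a member with another gene were past the limit, a lower background than in all cells.

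**Figure D3:**
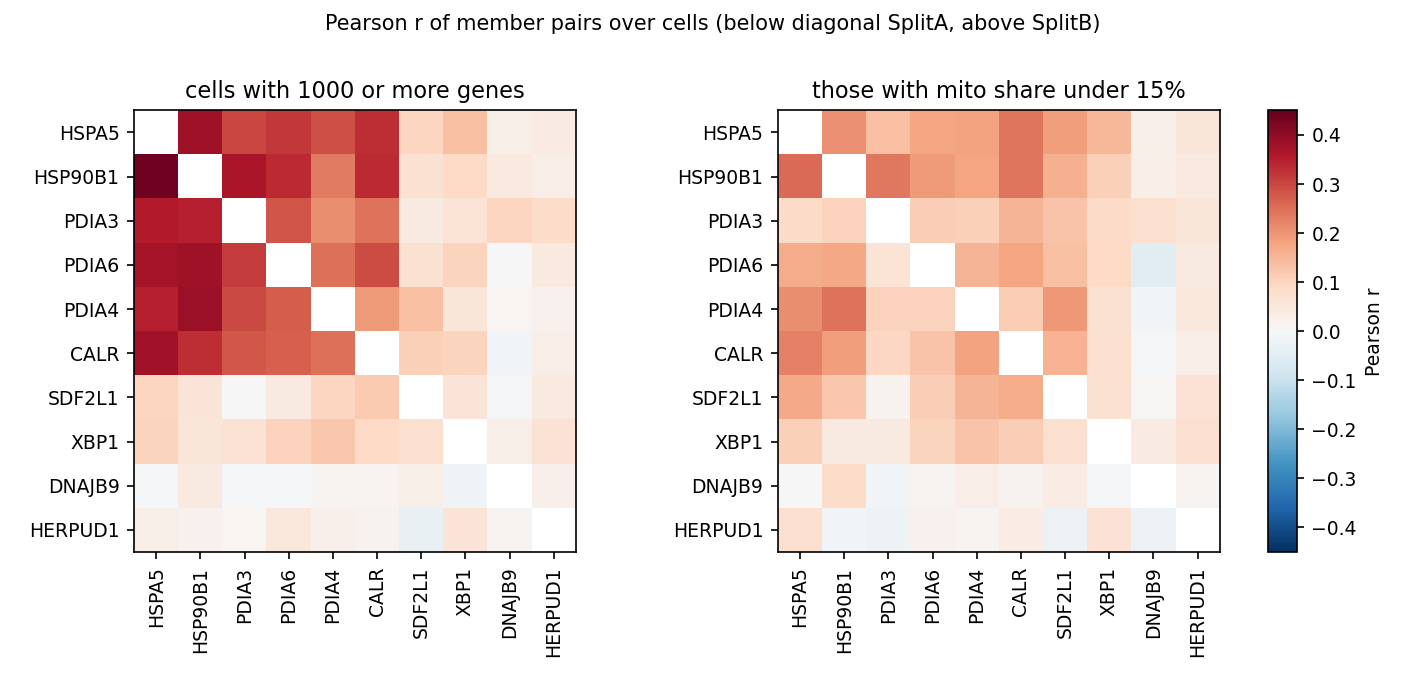
Pearson's r of the member pairs over cells, with SplitA below and SplitB above the diagonal, for cells with at least 1000 genes (left) and those of them with a mitochondrial share under 15% (right). The block of HSPA5, HSP90B1, PDIA3, PDIA6, PDIA4 and CALR is paler on the right, where HSPA5 with HSP90B1 was at 0.255 and 0.207, and SDF2L1 is darker.

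The genes most like the members were then ranked, by the lower of the 2 flasks' r with the mean level of the 10 members. Over all cells used, the first 10 were TUBA1A (0.421 and 0.424), HSP90AA1 (0.452 and 0.409), PCOLCE (0.436 and 0.389), MT-ND4 (0.450 and 0.371), MT-ND2, ACTB, MT-CO1, MT-CO3, MT-ND3 and PKM (0.375 and 0.335). They are a tubulin, a cytosolic chaperone, a collagen-processing enhancer, mitochondrial genes, an actin and a glycolytic enzyme. The members themselves were left out of the ranking. Of the further ER genes, DNAJB11 was at rank 19, MANF at rank 22 and PPIB at rank 30. Of all 8419 genes outside the members, 371 (4.41%) reached 0.1 in both flasks. In the cells under 15%, 88 genes did, and the order was another: MANF (0.327 and 0.368), CD63 (0.294 and 0.246), CRELD2 (0.260 and 0.228), CHGA (0.256 and 0.227), DBH (0.257 and 0.223) and DNAJB11 (0.204 and 0.260) came first. MANF and CRELD2 are secreted ER stress response proteins, CD63 is a tetraspanin of endosomal membranes, and DBH makes noradrenaline. TUBA1A was at rank 23 there (0.141 and 0.170).

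Of the further ER chaperone and degradation genes, 10 of 26 were past 0.1 with the mean of the members over all cells. Of all genes outside the members 4.41% were, which is the background of each list over all cells. They were PPIB (0.349 and 0.265), DNAJB11 (0.344 and 0.299), MANF (0.292 and 0.322), CRELD2 (0.206 and 0.234), CANX (0.199 and 0.130), P4HB (0.178 and 0.130), OS9 (0.175 and 0.146), SELENOS (0.134 and 0.142), DERL2 (0.132 and 0.124) and ERP44 (0.105 and 0.145). With every cell thinned to 2000 UMIs only the first 4 of these were still past it. In the cells under 15%, of these 10 only those 4, CANX (0.130 and 0.175) and SELENOS (0.189 and 0.117) were. DNAJC3 (0.164 and 0.187) and SELENOK (0.192 and 0.152) came in there. This made 8 of 26, where 1.05% of all genes outside the members were past it. Over all cells none of the 2 sensors with enough UMIs, ATF6 and ATF6B, was past it. Of the 7 PERK and integrated stress response genes only ASNS, which makes asparagine, was (0.272 and 0.207), and in the cells under 15% it was not (0.03 and 0.09). ATF4 itself was at 0.01 and 0.02. Among cytosolic and mitochondrial chaperones, 9 of 13 were past it, with HSP90AA1 (0.452 and 0.409), CCT5 (0.351 and 0.254), HSP90AB1 (0.316 and 0.294), CCT2 (0.305 and 0.197), HSPD1 (0.303 and 0.266), STIP1 (0.274 and 0.225), HSPA9 (0.260 and 0.235), DNAJA1 (0.183 and 0.187) and HSPA8 (0.117 and 0.134). In the cells under 15% only 3 of these 9 were past it, HSP90AA1 (0.204 and 0.185), CCT5 (0.105 and 0.109) and HSPA9 (0.110 and 0.103), while HSP90AB1 was at -0.01 and 0.02 and HSPA8 at -0.01 and -0.01. The median r was 0.102 for the first of these lists, 0.247 for the cytosolic and mitochondrial chaperones and 0.0065 for all genes.

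Secretory granules store hormones and neuropeptides, whose precursors are folded in the ER, so the members were set beside 14 granule genes: CHGA, CHGB, SCG2, SCG3, SCG5, VGF, PCSK1, PCSK1N, PCSK2, CPE, PAM, GAL, NPY and CARTPT. The cells of each flask were ordered by the share of UMIs from these genes, and the 300 highest of SplitA and 398 highest of SplitB were compared with as many of the lowest. Granule UMIs were left out of the totals. HSPA5 was at 101 CPM against 44.2 in SplitA and 109 against 38.9 in SplitB, higher by 1.19 (0.83 to 1.57) and 1.48 (1.16 to 1.82) on the log2 scale. It had the largest difference of the members in both flasks. GAL alone gave 17720 of the 42670 UMIs of the granule list. Without GAL in the list, 8 members were past 0.25 upward in both flasks. HSPA5 was then higher by 1.49 by the mean of the flasks, against 1.34 with GAL. The difference was smaller without both CHGA and CHGB in the granule list, where HSPA5 was higher by 0.39 and 0.91 and PDIA6 (0.23 and 0.34) was not past 0.25 in both flasks, which left 7 members.

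PDIA4 was higher by 0.83 and 1.15, PDIA3 by 0.87 and 0.96, CALR by 0.98 and 0.75, HSP90B1 by 0.78 and 0.89, XBP1 by 0.99 and 0.49, SDF2L1 by 0.80 and 0.67 and PDIA6 by 0.50 and 0.55. DNAJB9 (0.74 and 0.05) and HERPUD1 (-0.44 and 0.17) were not past 0.25 in both flasks. In all, 8 of 10 members were higher, where 23.3% of all genes were, and none was lower, where 6.79% were. The median of the members was 0.81 in SplitA and 0.71 in SplitB, and that of all genes 0.13 and 0.15. Summed, the members were higher by 0.79 (0.68 to 0.90) and 0.79 (0.71 to 0.88).

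The medians of depth and mitochondrial share differed little between these cells, with totals of 5936 against 6529 UMIs in SplitA and 6227.5 against 6648.5 in SplitB, and mitochondrial shares of 8.85% against 8.54% and 9.25% against 8.48%. Medians do not show how many cells of high mitochondrial share each end held. With every cell thinned to 2000 UMIs HSPA5 was higher by 1.32 and 1.83, SDF2L1 (1.09 and 0.22) was not past the limit in both flasks and DNAJB9 (1.88 and 1.59) was. The thinned DNAJB9 value rests on few counts, since only 1.89% and 3.10% of all thinned cells held a DNAJB9 UMI. In the cells under 15% the same count, 8 members, was past the limit. HSPA5 was then at 0.89 and 0.87 and PDIA6 at 0.32 and 0.31, both smaller than over all cells. Cells near the division were many, 89 and 101 within 10% of the upper limit of the share, so these are ends of a range and not classes of cells.

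PCSK1, PCSK2 and SCG5 were under 100 UMIs, so 11 granule genes were left for correlation. Of their 110 pairs with a member, 20 (18.2%) had an r of 0.1 or more in both flasks, and none of -0.1 or less. The share was 1.35% for pairs of a member with any other gene, again not matched in level. CHGA, the main matrix protein of the granule, was paired with 7 members, led by HSPA5 (0.254 and 0.318), HSP90B1 (0.241 and 0.268) and CALR (0.233 and 0.215). CPE, which trims peptides in the granule, was paired with 6 members (HSP90B1 at 0.215 and 0.205), and CHGB and VGF with HSPA5, HSP90B1 and CALR. GAL, the precursor of galanin, was paired only with SDF2L1 (0.160 and 0.172). XBP1 was past the limit with CHGA alone (0.125 and 0.102). The other 6 granule genes tested were not paired with any member. CHGA (3.29 and 3.44), CPE (3.25 and 3.48), CHGB (2.96 and 2.55) and VGF (1.88 and 1.40) were themselves higher on the log2 scale in cells of 30% or more mitochondrial share, and GAL (-1.69 and -0.82) was lower. In the cells under 15% only 9 of the 20 pairs were still past 0.1, none of them with CPE, and 2 others came in, SDF2L1 with CHGA (0.162 and 0.151) and with CHGB (0.108 and 0.117). HSPA5 with CHGA was then at 0.182 and 0.175, and GAL with SDF2L1 at 0.151 and 0.155. With the mean of the 10 members GAL went from 0.02 and 0.06 in all cells to 0.167 and 0.187 in those under 15%, whereas CPE went from 0.289 and 0.229 to 0.179 and 0.06.

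Other stress genes differed with the granule share as well. Of all genes, 23.3% were higher and 6.79% lower, which is the background of each list. Of the further ER chaperone and degradation genes 15 of 26 were higher and none lower, with SELENOS at 0.91 and 0.82, CRELD2 at 0.80 and 1.21 and OS9 at 0.74 and 0.99. Of 7 PERK and integrated stress response genes 4 were higher: DDIT3 (1.44 and 1.09), ATF3 (1.11 and 0.90), PPP1R15A (0.42 and 0.88) and ASNS (0.38 and 0.27). Of the cytosolic and mitochondrial chaperones 7 of 13 were, with list medians of 0.30 and 0.38, below those of the members.

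The cells with the most HSPA5 were examined for the other members. The 90 cells of SplitA and 120 of SplitB that made up the top 10% in log-normalized HSPA5 held a median of 2 HSPA5 UMIs, the other cells a median of 0. HSPA5 itself chose these cells and is no result. They were shallower (median totals of 3962.5 against 6180 UMIs in SplitA, 4125 against 6504 in SplitB) and had a higher median mitochondrial share (13.7% against 8.54%, 15.9% against 8.70%). All 9 other members were past 0.25 upward in both flasks, where 23.3% of all genes were, and none was past it downward, where 9.75% were. With every cell thinned to 2000 UMIs and the top 10% taken anew, 7 members were past it upward. SDF2L1 was then at 0.31 and HERPUD1 at 0.36 by the mean of the flasks, below their unthinned means of 0.82 and 0.98.

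PDIA3 was higher by 2.29 and 2.03, HSP90B1 by 2.21 and 2.05, PDIA4 by 2.03 and 1.79, PDIA6 by 1.79 and 1.43 and CALR by 1.66 and 1.45. XBP1 (0.98 and 1.03), SDF2L1 (0.93 and 0.71), HERPUD1 (0.65 and 1.31) and DNAJB9 (0.72 and 0.79) followed, the last with intervals that included 0 in both flasks (-0.55 to 1.79 and -0.10 to 1.57). For HERPUD1 this held in SplitA (-0.47 to 1.60). The first 10 genes of this comparison by the lower flask were HSP90B1, PDIA3 and PDIA4, with ASNS (2.86 and 1.91), the annexin ANXA6 (2.11 and 1.89), SLC3A2, a subunit of an amino acid transporter (1.95 and 1.88), DNAJB11 (2.09 and 1.83), the mitochondrial creatine kinase CKMT1B (1.77 and 1.88), PCOLCE (1.98 and 1.76) and DDIT4 (1.76 and 2.01). Of 26 further ER genes 14 were higher and only EDEM2 was lower (-0.62 and -0.65), and 4 of 7 PERK and integrated stress response genes were higher, with DDIT3 at 1.05 and 0.84. Of all genes, 23.3% were higher and 9.75% lower. Among the cells under 15%, 8 of 9 members were higher, with HSP90B1 at 1.37 and 1.11, SDF2L1 at 1.07 and 0.92 and DNAJB9 (0.15 and 0.55) not past the limit. The first 10 genes and the list counts were not taken anew in those cells. ASNS was also rank 2 of 8416 genes in the comparison by mitochondrial share.

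**Figure D4:**
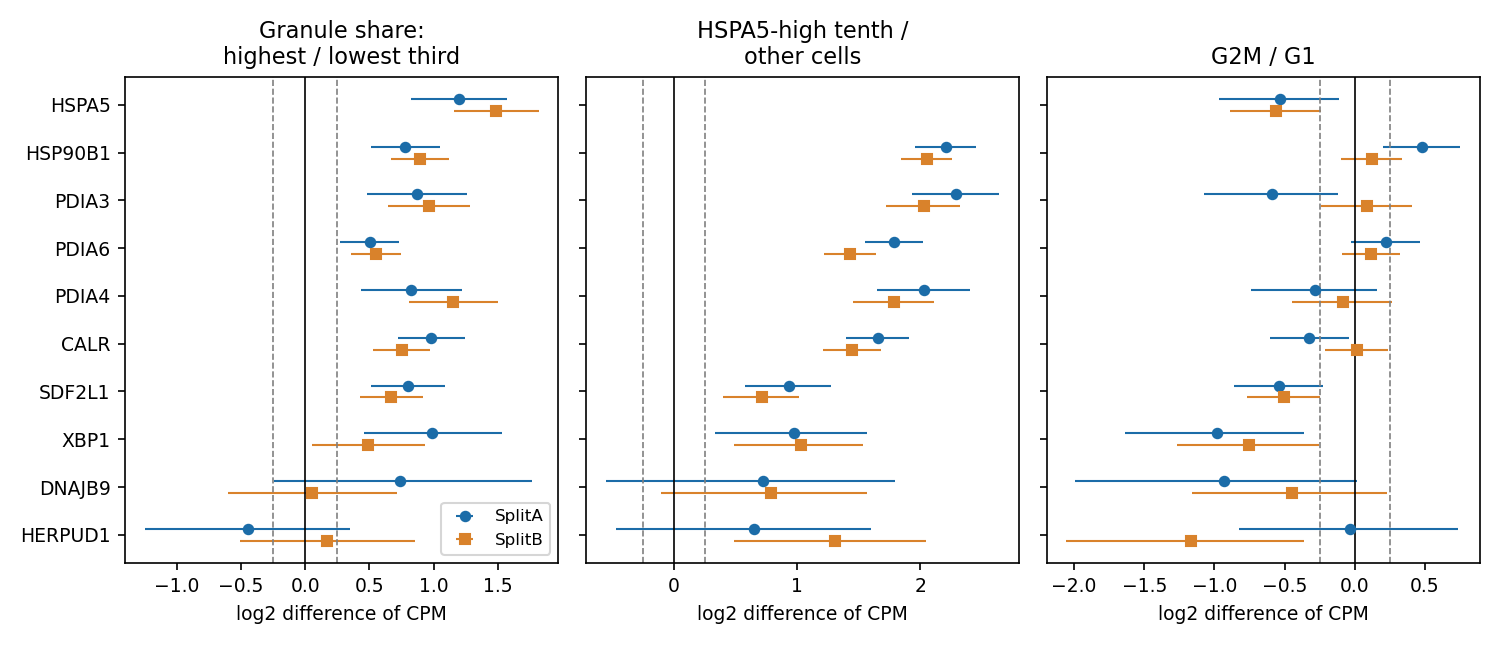
Log2 difference of CPM for each member and flask, with exact 95% intervals for counting error, between cells of highest and lowest granule share (left), between the 10% of cells highest in HSPA5 and the other cells (middle, HSPA5 left out since it chose the cells) and between G2M and G1 cells (right). Dashed lines mark the limit of 0.25. HSPA5 was higher by 1.19 and 1.48 with the granule share (0.39 and 0.91 without CHGA and CHGB) and lower in G2M, at -0.53 and -0.56 (0.06 and -0.41 with cells thinned to 2000 UMIs).

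Last, the members were compared between phases of the cell cycle, which were assigned by gene scores (407 G1, 300 S and 192 G2M cells in SplitA, 548, 363 and 284 in SplitB). XBP1 was at 19.9 CPM in G2M against 39.2 in G1 in SplitA and at 22.4 against 37.7 in SplitB (-0.98 and -0.75). HSPA5 was at 46.2 against 66.8 CPM and 54.7 against 80.7 CPM (-0.53 and -0.56), SDF2L1 at 81.8 against 119 CPM and 84.1 against 119 CPM (-0.54 and -0.50), and DNAJB9 at -0.93 and -0.44 on 12 and 26 UMIs in G2M cells. These 4 members were lower in G2M in both flasks, where 12.4% of all genes were, and none was higher, where 29.3% were. HSP90B1 (0.48 and 0.12), PDIA6 (0.22 and 0.12) and CALR (-0.32 and 0.01) were not past 0.25 in both flasks. The median of all genes was 0.14 in each flask.

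Lower levels in G2M were also found for MANF (-0.80 and -0.85), DNAJC3 (-0.64 and -1.06), CRELD2 (-0.38 and -0.87) and PPIB (-0.55 and -0.60) among 7 of 26 further ER genes that were lower, and HSPA13 was the 1 gene of that list that was higher (0.39 and 0.79). Of 13 cytosolic and mitochondrial chaperones 7 were higher in G2M and none was lower. Of all genes, 29.3% were higher and 12.4% lower, which is the background of these lists. G2M cells were deeper, with medians of 7147 and 6977.5 UMIs against 5820 and 6152.5 in G1, and their median mitochondrial shares were 8.83% and 8.81% against 8.43% and 8.82%. After thinning of each cell to 2000 UMIs, the HSPA5 difference (0.06 and -0.41) and that of DNAJB9 (-0.79 and 0.24) were no longer past the limit in both flasks. XBP1 (-0.97 and -0.69) and SDF2L1 (-0.65 and -0.62) were still lower, HERPUD1 (-0.29 and -1.86) came in, and HSP90B1 (0.62 and 0.52) and PDIA6 (0.32 and 0.45) were higher. The thinned values of HERPUD1 and DNAJB9 rest on few counts. Over all phases only 2.78% and 1.93% of thinned cells held a HERPUD1 UMI, and 1.89% and 3.10% a DNAJB9 UMI. In the cells under 15% HSPA5 was at -0.90 and -0.80. Before thinning, the G2M cells of SplitA held 65 HSPA5 and 28 XBP1 UMIs, so the thinned values of these genes, from a single draw, rest on fewer. Whether the HSPA5 values of these settings differ by more than counting error was not tested.

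Between S and G1, PDIA4 (0.33 and 0.38) and PDIA6 (0.35 and 0.27) were higher in S. These 2 of 10 members are no more than the background, since 20.9% of all genes were higher. DNAJB9 (-1.12 and -0.34) and HERPUD1 (-0.44 and -0.65) were lower, where 10.3% of all genes were. They rest on few counts in S cells, 14 and 33 UMIs for DNAJB9 and 23 and 27 for HERPUD1. HSPA5 differed in sign between flasks (0.35 and -0.41), and so did HSP90B1 (0.28 and -0.23).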

How the data were processed

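The deposited table holds raw UMI counts per gene and cell without normalization, which the authors made with STAR 2.7 and Cell Ranger 4.0.0 on hg38, and the hashtag counts of the same cells. Which annotation release they used is not given in the sources used here. Cells were taken as deposited by the authors. The further cell filter of their supplementary code, on UMIs, genes and mitochondrial share, was applied only as an alternative. Cells were assigned to flasks by hashtag (with the count limit of the supplementary code and a ratio of 3). They were kept with at least 1000 genes, which left 1801 to 27205 UMIs per cell. Doublets among the kept singlets were called with Scrublet in scanpy 1.11.5, 11 in SplitA and 7 in SplitB, and were removed only as an alternative.

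Levels are CPM of summed UMIs with exact 95% Poisson intervals, shares have exact binomial intervals, and ratios have the exact interval of the binomial share. Correlations used counts log-normalized to 10000 UMIs per cell. Genes with at least 100 UMIs over both flasks were tested. Calls needed a log2 difference of 0.25 (0.5 for mitochondrial share), an r of 0.1, or a variance over 1.2 times Poisson in both flasks. Phases came from Seurat 5.3.0 in R 4.3.3 with its first cycle gene list (42 of 43 S genes and 52 of 54 G2M genes found). Cells were thinned by a single random draw to 2000 UMIs, or to 500 for mitochondrial share. Promoters are RefSeq windows and gene positions GENCODE release 44. Python 3.11.15, numpy 2.4.6 and scipy 1.17.1 were used, and the steps were tested on simulated data.

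SplitA and SplitB were replicates 1 and 2 of the same condition, so no condition was compared. Named genes were the members, every list gene past a limit or the leading ones of a list, and the 10 genes most like the members. The members and lists were chosen with earlier results of these data known. Genes named for the cells under 15% mitochondrial share, and those at the head of the HSPA5-high comparison, were chosen after their values were seen.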

Additional observations from a re-analysis of the deposited data

Results flagged for a closer look

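The 95 multiplets were left out of every comparison of the report because their hashtags do not give a flask. In the 73 of them with at least 1000 genes the 10 members summed to 1007 CPM (exact 95% Poisson interval 927 to 1092) on 582 UMIs, where a count of 0 would have allowed up to 5.19 CPM. This was flagged because it is signal in cells outside the main measurement, and it was above the 748.5 and 768 CPM of the singlets. A test of this difference was not made.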

How the results depend on the processing

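Of 60 recomputed summary values, 45 stayed within 1.5 times the main count or within the spread of the flasks, and the cause of the other changes was not tested. Some of the 45 could not have moved. A gene limit of 20 UMIs cannot change the members past the flask limit, and the summed level of either flask always lies within the flasks' spread. The summed level of the members, 758 CPM over both flasks, was 751 CPM with the cell filter of the supplementary code. It was 933 CPM with cells of 300 or more genes and 836 CPM with nuclear-encoded UMIs as denominator. In cells with a mitochondrial share under 15% it was 661 CPM. In those cells 2 members passed the flask limit in place of 1, PDIA3 (-0.26) beside DNAJB9 (-0.35). The median r of member pairs, 0.0721, was 0.108 with at least 1500 genes per cell, 0.0461 with every cell thinned to 2000 UMIs, 0.0871 as a partial r on log10 UMIs, mitochondrial share and cycle scores and 0.0912 in cells under 15%, and ranged from 0.0717 to 0.0899 without one flask. In mean UMIs per cell in place of CPM, 3 members in place of 9 were higher in cells of high mitochondrial share, and CALR (-0.33), XBP1 (-1.71), DNAJB9 (-1.57) and HERPUD1 (-1.01) reversed on the log2 scale. The lower members between cycle phases were 2 for S over G1 in place of 4 for G2M over G1, and ranged from 5 to 7 without one flask. Without one flask a call needs only the flask that is left, so such a count can only stay or rise. Further UPR genes past the limit, 11 of 35, were 5 after thinning and 7 with Spearman's correlation, and 2 promoters held ERSE-II where 5 held ERSE. For the comparison of cells at 30% or more, a mitochondrial share of 9 genes, without MT-CO1, MT-CO2, MT-CO3 and MT-CYB, gave no value, since a single SplitA cell reached 30% of it. Of 176 recomputed values of single members, 76 stayed within the flasks' spread, 96 moved by more in the same direction or without a call, and 4 reversed. The cells under 15% and the counts per cell were chosen after seeing the data. No paired analysis was possible because each flask gives a single value and the labels give no shared replicate numbers. Depth limits DNAJB9 and HERPUD1 most, with 192 and 198 UMIs in all.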

Other observations

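The members differed in transcript length, and so did the genes that went up or down with mitochondrial share. The canonical transcript of GENCODE release 44 was 3921 bases for HSPA5, 3680 for PDIA3, 2782 for HSP90B1, 2767 for PDIA4, 2279 for PDIA6, 1901 for CALR, 1791 for XBP1 and 825 for SDF2L1, the only member that was not higher. HERPUD1 (2853 bases, 1.86 and 1.44) and DNAJB9 (2409 bases, 0.88 and 1.30) broke the order, since they were longer than HSP90B1 and PDIA6 respectively but had smaller differences. Over the 8399 of 8416 genes with a length, Spearman's rho of length with the log2 difference between cells of 30% or more and cells under 10% was 0.257 in SplitA and 0.287 in SplitB. This is a description across genes of the same cells, which are not independent replicates. The 661 genes under 1000 bases had medians of -0.72 and -0.68, the 2869 genes of 2000 to 4000 bases medians of 0.69 and 0.73, and the 3183 genes of at least 4000 bases medians of 0.93 and 0.99. HSPA5 at 4.48 and 4.44 and PDIA3 at 4.22 and 3.78 lay far above the median of their length range. HSPE1 (557 bases, -1.28 and -1.11) and its partner HSPD1 (2245 bases, 2.62 and 2.54) are a further pair of chaperones that work together and went apart. Other ER genes broke the order of length. PPIB (893 bases) was higher by 2.37 and 2.13, while SSR1 (9661 bases) was at 0.13 and 0.97 and EDEM1 (6113 bases) at -0.08 and 0.80. All of these are single cases and not a count over the lists. The part of length in the members' values was not tested.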
